A study of Zea mays with 17 samples.

Results

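Pollen wall and late tapetum male-fertility genes of maize (Zea mays) were followed across meiocytes, tapetum, other somatic cells and whole anthers at the anther lengths of 1.5 and 2.0 mm. The set held 8 genes, named by gene identifier rather than by a threshold on their counts, out of 46430 rows of the count table, of which 44146 were nuclear genes. The members were Ms33 (Zm00001d007714), Ms26 (Zm00001d027837), Ms6021 (Zm00001d048337), Ms30 (Zm00001d052403), Ipe1, also called Ms20 (Zm00001d029683), Ms44 (Zm00001d052736), Ms45 (Zm00001d047859) and Ms7 (Zm00001d020680). The names came with the identifiers, since the count table holds identifiers only.

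The tapetum is the innermost wall layer of the anther, next to the meiocytes. It feeds the developing pollen and secretes the precursors of sporopollenin, the lipid and phenolic polymer of the outer pollen wall, and of the cuticle on the anther surface. In maize, recessive mutants of Ms33, Ms26, Ms6021, Ms30, Ipe1, Ms45 and Ms7 are male sterile, and Ms44 is known from a dominant male-sterile allele. Ms33 encodes a glycerol-3-phosphate acyltransferase, Ms26 a cytochrome P450 that hydroxylates fatty acids, Ms6021 a fatty acyl reductase, Ms30 a GDSL lipase and Ipe1 a glucose-methanol-choline oxidoreductase. Ms44 encodes a small secreted lipid transfer protein, Ms45 a strictosidine synthase-like enzyme and Ms7 a PHD-finger transcriptional regulator.

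All plants were wild type W23 bz2, an inbred line, raised in a greenhouse, and no group carried another allele or treatment. At each length, meiocytes (ME), tapetum (TAP) and other somatic cells (OSC) were cut from sections by laser capture, and fixed anthers (FA) were taken whole. Each of the 8 groups had 2 libraries, except FA at 1.5 mm with 3, which gave 17 libraries of CEL-seq2, a method that reads the 3' end of polyadenylated RNA. The labels do not say whether replicates came from separate plants, so the p-values measure the spread between these libraries, which may be technical.

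Total counts ran from 280760 to 4428287 per library. Levels are given as CPM, the counts scaled to the library total. Where no count was seen, the limit taken is 3 counts, equal to 10.7 CPM in the smallest library and 0.677 CPM in the largest, and it covers counting error only. Among genes with at least 10 CPM in either library of a pair, between 0.255% and 0.529% lay 4-fold or more apart (with 2 CPM added) between FA libraries at 1.5 mm, against 28.3% between the ME libraries at 1.5 mm and 34.3% between those at 2.0 mm. Replicate 2 of ME at 1.5 mm was most like replicate 1 of ME at 2.0 mm (Pearson r = 0.86 across genes, which are not independent) and less like its own replicate (r = 0.759). Replicate 1 of ME at 1.5 mm was about as like replicate 2 of ME at 2.0 mm (r = 0.76) as its own replicate (r = 0.759). The labelled cell types could not be checked against marker genes, because none of the 5 tapetum, 12 meiocyte and 4 somatic marker symbols could be tied to a row. In bulk samples such as these, fewer cells of a type and less RNA per cell cannot be told apart.

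The members differed in how widely they were detected. Ms44 and Ms45 had counts in all 17 libraries, Ms6021 in 12, Ms26 in 11, Ms33 in 10, Ipe1 in 8, Ms30 in 7 and Ms7 in 2. The filter on low counts kept 6 of the 8 genes for the captured cells and for the fit of all libraries, leaving out Ipe1 and Ms7, and 5 for FA alone, leaving out Ms30 as well. Statements on tested genes below do not cover those left out. Tested genes at 0 counts in both groups compared are still counted as tested, but they could not pass. These were Ms30 in TAP against OSC and against FA at 1.5 mm, and Ms33 in TAP against OSC at 2.0 mm. A median over the tested genes is given only where it does not rest on genes at 3 counts or fewer.

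**Figure D1:**
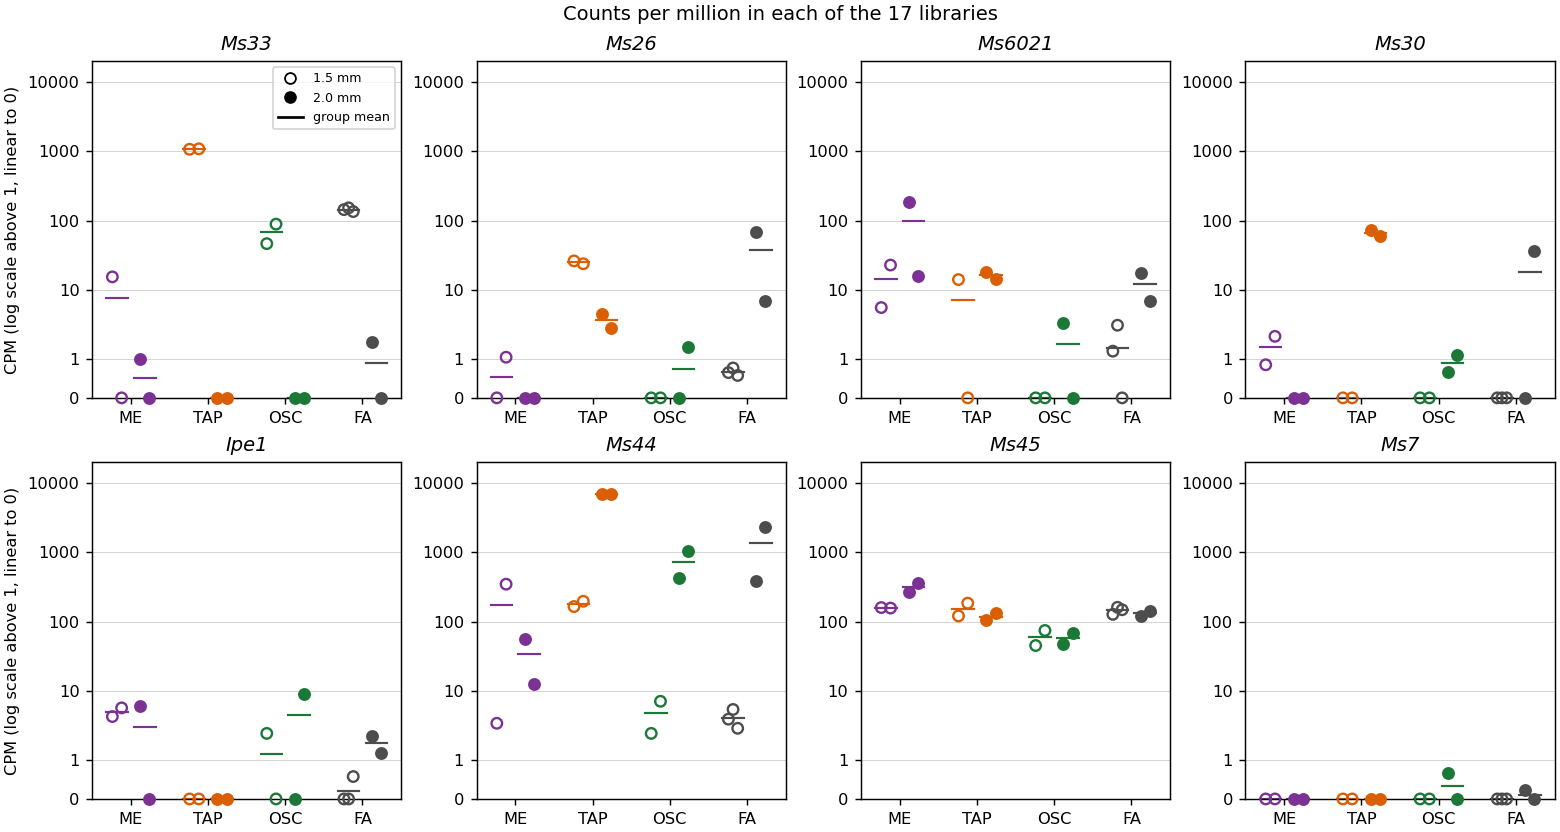
CPM of each of the 8 genes (one panel each, log scale above 1 and linear below) by cell type, with open points for 1.5 mm and filled points for 2.0 mm; each point is 1 of the 17 libraries and each bar a group mean. Ms33 lies near 1078 CPM in TAP at 1.5 mm and at 0 in TAP at 2.0 mm, Ms30 and Ms44 are highest in TAP at 2.0 mm, and Ms45 is present in every library.

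Ms33, whose acyltransferase acts early in glycerolipid synthesis, had the highest level per kilobase among the lipid enzymes in TAP at 1.5 mm. In TAP at 1.5 mm it had 1070.5 and 1086 CPM, a mean of 1078 ± 10.9 CPM (SD, n = 2). The other 1.5 mm libraries held 15.5 and 0 CPM in ME, 46.6 and 89.0 CPM in OSC, and 144, 153 and 135 CPM in FA. Both tapetum libraries thus stood above every other library, and FA stood above OSC and ME with no overlap. Ms33 ranked 73 by CPM among the 18679 genes with a count in TAP at 1.5 mm, and 194 by CPM per kilobase of the deposited gene length.

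At 2.0 mm Ms33 had nearly vanished. Both TAP and both OSC libraries held 0 counts, and the ME libraries held 1 count and 0. FA held 1.81 CPM (8 counts) and 0. No group at 2.0 mm overlapped the TAP, OSC or FA libraries of 1.5 mm.

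Ms26, the fatty acid hydroxylase, was present in the tapetum at 1.5 mm with 26.3 and 23.9 CPM (13 and 12 counts), a mean of 25.1 ± 1.66 CPM (SD, n = 2). The other 7 libraries of that length held between 0 and 3 counts each. At 2.0 mm the tapetum held 4.51 and 2.79 CPM (12 and 9 counts), below both 1.5 mm libraries. FA at 2.0 mm gave the highest value of the gene, 67.7 CPM, in replicate 1 and only 6.92 CPM in replicate 2. Both FA libraries exceeded both TAP libraries of the same length, and the other captured cells of that length held 0 counts in ME and 0 and 4 counts in OSC.

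Ms6021, the fatty acyl reductase, did not have its highest value in the tapetum. Replicate 1 of ME at 2.0 mm held 182.7 CPM (178 counts) and replicate 2 held 16.1 CPM (9 counts). TAP at 2.0 mm held 18.1 and 14.5 CPM (48 and 47 counts), a mean of 16.3 ± 2.48 CPM (SD, n = 2), and FA at 2.0 mm 17.6 and 6.92 CPM. A single meiocyte library set the top value, and its replicate lay between both tapetum libraries. At 1.5 mm the gene had 5.58 and 22.9 CPM in ME, 14.1 CPM (7 counts) and 0 in TAP, 0 in both OSC libraries, and 1.31, 3.10 and 0 CPM in FA.

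Ms30, the GDSL lipase, showed the opposite timing to Ms33. None of the 7 TAP, OSC and FA libraries at 1.5 mm held a count, and the ME libraries held 2 and 6 counts. TAP at 2.0 mm held 74.5 and 59.4 CPM (198 and 192 counts), a mean of 67.0 ± 10.6 CPM (SD, n = 2). At that length OSC held 1 and 3 counts, ME held 0, and FA held 0 in replicate 1 and 35.9 CPM (83 counts) in replicate 2. Both tapetum libraries exceeded all other libraries.

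Ipe1, the oxidoreductase, was at 0 counts in all 4 TAP libraries. The limits of 3 counts there were 6.06 and 5.98 CPM at 1.5 mm and 1.13 and 0.929 CPM at 2.0 mm. Its 73 counts lay in 8 libraries, with the highest value, 9.11 CPM (24 counts), in replicate 2 of OSC at 2.0 mm and 0 in the other OSC library of that length. ME at 1.5 mm held 4.29 and 5.72 CPM, and replicate 1 of ME at 2.0 mm 6.16 CPM. In the smallest library, whose limit is 10.7 CPM, none of these levels could have been told from 0.

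Ms44, the lipid transfer protein, had 52309 counts over the 17 libraries. In TAP at 2.0 mm it had 6875 and 6886 CPM, a mean of 6880.1 ± 7.58 CPM (SD, n = 2), equal to 0.687% and 0.689% of all counts in those libraries. It ranked 6 by CPM and 5 by CPM per kilobase among 19183 genes with a count there. At the same length OSC held 429 and 1044 CPM, FA 385 and 2354 CPM, and ME 56.5 and 12.5 CPM. The tapetum thus stood above FA, which overlapped OSC, and ME was lowest.

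At 1.5 mm Ms44 was lower and one library stood out. TAP held 166 and 197 CPM, a mean of 181 ± 22.4 CPM (SD, n = 2). FA held 3.93, 5.43 and 2.91 CPM, and OSC 2 counts in each library. ME held 3.43 CPM in replicate 1 and 348 CPM (973 counts) in replicate 2, which was above both tapetum libraries. That replicate was the ME library of 1.5 mm with the stronger likeness to a 2.0 mm library (r = 0.86, against 0.76 for replicate 1). The part of that likeness in the Ms44 value was not tested.

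Ms45, the strictosidine synthase-like enzyme, was spread over all groups. Its highest values were in ME at 2.0 mm, 270.0 and 363 CPM, a mean of 316 ± 65.7 CPM (SD, n = 2). The next groups lay close together: ME at 1.5 mm held 160.1 and 157 CPM, TAP at 1.5 mm 121 and 185 CPM, FA at 1.5 mm 128, 161 and 149 CPM, FA at 2.0 mm 119.9 and 144 CPM and TAP at 2.0 mm 105 and 132 CPM. Neighbours in that order overlapped, apart from ME at 2.0 mm, which lay above all of them. OSC lay below all other groups with no overlap, with 45.4 and 74.8 CPM at 1.5 mm and 47.2 and 67.9 CPM at 2.0 mm, and both lengths overlapped each other.

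Ms7, the PHD-finger regulator, was close to undetected. It had 1 count in replicate 1 of OSC at 2.0 mm, 1 count in replicate 1 of FA at 2.0 mm and 0 in the other 15 libraries. No comparison of this gene was possible at this depth.

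Per kilobase, the order of the genes in the tapetum changed between lengths. At 1.5 mm Ms33 led with a mean of 502 CPM per kilobase, followed by Ms44 with 319, Ms45 with 93.4 and Ms26 with 13.0 CPM per kilobase. At 2.0 mm Ms44 led with 12113 CPM per kilobase, followed by Ms45 with 72.3 and Ms30 with 58.3 CPM per kilobase. CEL-seq2 reads the 3' end, where counts need not grow with length, so this order holds on that scale only.

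The first comparison asked which of the genes stood higher in the tapetum than in the meiocytes it surrounds. At 1.5 mm, 1 of the 6 tested genes, Ms33, was called higher in TAP and 0 lower, where 10.0% of all 16940 genes tested were called higher and 7.13% lower (edgeR's quasi-likelihood test, adjusted p under 0.05). Ms33 had 36 counts in ME and 1075 in TAP, a ratio of depth-scaled counts of 153.5 (95% counting interval 110.2 to 220.4). Its fitted log2 fold change was 6.91 ± 1.37 (SE; edgeR, adjusted p = 0.00790). Fitted to the ME and TAP libraries of 1.5 mm alone, the adjusted p was 0.0709.

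The other members at 1.5 mm did not pass. Ms26 had 3 counts in ME and 25 in TAP, a ratio of 42.8 (95% counting interval 13.1 to 222), with a log2 fold change of 5.02 ± 1.90 (SE; edgeR, adjusted p = 0.0885). For Ms44 the ME replicates spanned the TAP values, and the log2 fold change was -0.28 ± 1.17 (SE; edgeR, adjusted p = 0.923). Without replicate 2 of ME it was 5.25 (edgeR, adjusted p = 0.00236), so that library decided the direction. Ms45 differed by -0.32 ± 0.55 (SE; edgeR, adjusted p = 0.741). Over the 6 tested genes the median log2 fold change was -0.30, and over all genes tested it was 0.

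At 2.0 mm, 2 of the 6 tested genes, Ms30 and Ms44, were called higher in TAP than in ME and 0 lower, where 18.1% of all genes were called higher and 9.66% lower. Ms30 was at 0 counts in ME, so its level in TAP was at least 15.9-fold higher (edgeR, adjusted p = 0.00671). Ms44 had a ratio of 170.2 (95% counting interval 132.7 to 222) and a log2 fold change of 7.72 ± 1.56 (SE; edgeR, adjusted p = 0.00377). Without replicate 2 of ME at 2.0 mm the adjusted p of Ms44 was 0.0504. Ms30 passed in all 19 alternatives run.

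Ms45 and Ms6021 had negative values at 2.0 mm that did not pass. The TAP to ME ratio of Ms45 was 0.395 (95% counting interval 0.350 to 0.444), and both ME libraries exceeded both TAP libraries. Its log2 fold change was -1.26 ± 0.55 (SE; edgeR, adjusted p = 0.102), and of 19 alternatives it passed in 3, with RLE size factors (adjusted p = 0.0399), with DESeq2 (adjusted p = 0.00275) and without replicate 2 of ME at 1.5 mm (adjusted p = 0.0359). Ms6021 differed by -2.51 ± 1.55 (SE; edgeR, adjusted p = 0.244), and by 0.27 without replicate 1 of ME at 2.0 mm, so that library set its direction. The median log2 fold change over all genes tested was 0.64.

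The second comparison set the tapetum against other somatic cells. At 1.5 mm 0 of the 6 tested genes passed in edgeR, 4 had an unadjusted p under 0.05 and DESeq2 called 1, where edgeR called 0.614% of all genes higher and 2.24% lower. Ms33 was highest in TAP with a ratio of 18.8 (95% counting interval 14.5 to 24.6) and no overlap of libraries, but its log2 fold change of 4.06 ± 1.21 did not pass (SE; edgeR, adjusted p = 0.0996). Ms44 differed by 5.49 ± 1.60 (SE; edgeR, adjusted p = 0.0853). Ms26 was at 0 counts in OSC and thus at least 3.49-fold higher in TAP (edgeR, adjusted p = 0.167).

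Of 19 alternatives, Ms33 passed this comparison in 4 and Ms44 in 5. Without replicate 1 or replicate 2 of ME at 1.5 mm, Ms33 had an adjusted p of 0.00128 or 0.00113, and Ms44 of 0.000812 or 0.000647. Fitted to the TAP and OSC libraries of 1.5 mm alone, they had 0.000104 and 0.000506. The adjusted p reached 0.469 for Ms33 and 0.455 for Ms44, both without replicate 1 of OSC at 1.5 mm.

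At 2.0 mm, 1 of the 6 tested genes, Ms30, was called higher in TAP than in OSC and 0 lower, where 2.45% of all genes were called higher and 12.5% lower. Ms30 had 4 counts in OSC and 390 in TAP, a ratio of 68.6 (95% counting interval 26.6 to 253) and a log2 fold change of 5.85 ± 1.42 (SE; edgeR, adjusted p = 0.0206). Without any one of the TAP and OSC libraries of 2.0 mm the adjusted p of Ms30 lay between 0.0943 and 0.160. Ms44 had a ratio of 8.39 (95% counting interval 8.10 to 8.69) and a log2 fold change of 3.01 ± 1.24 that did not pass (SE; edgeR, adjusted p = 0.124), and it passed in 4 of 19 alternatives, among them without replicate 1 (0.00212) or replicate 2 (0.00173) of ME at 1.5 mm, with an adjusted p of up to 0.447 in the others. Ms45 differed by 0.82 ± 0.55 (SE; edgeR, adjusted p = 0.369).

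**Figure D2:**
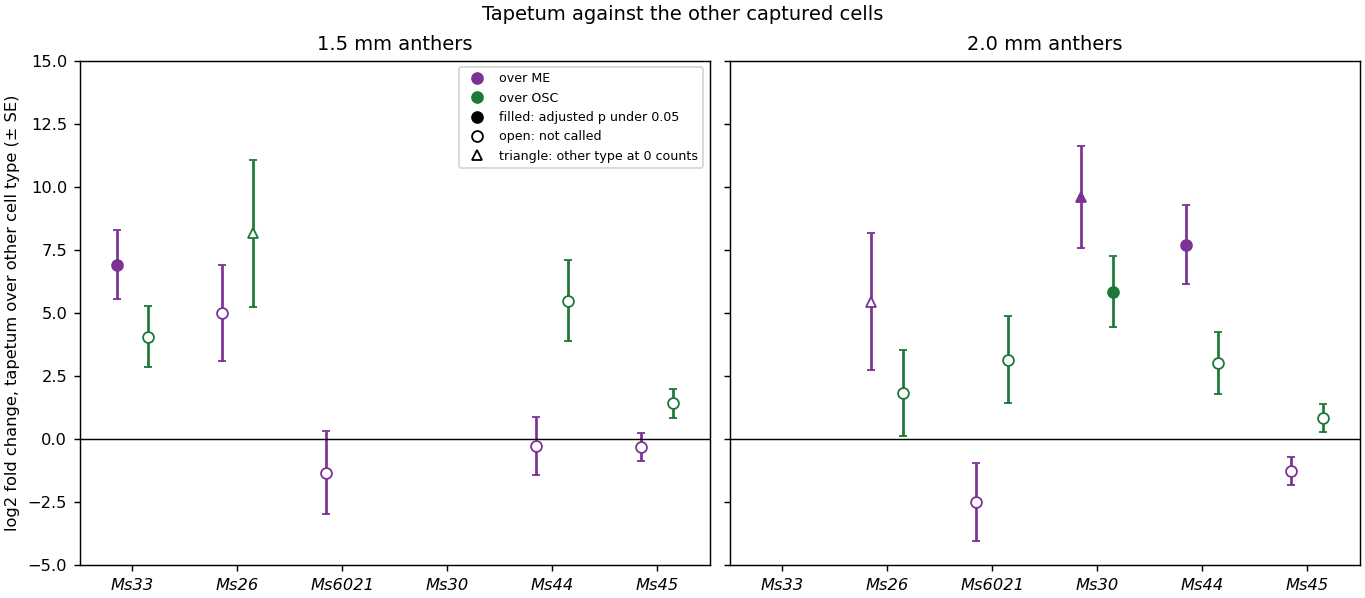
Fitted log2 fold change of TAP over ME (purple) and over OSC (green) at 1.5 mm (left) and 2.0 mm (right), with bars of 1 standard error, for the tested genes with enough counts in the groups compared; filled marks passed edgeR's adjusted p under 0.05, and triangles mark a fold against a group at 0 counts, whose size depends on the prior count. Ms33 passed against ME at 1.5 mm (6.91), Ms30 and Ms44 against ME at 2.0 mm, and Ms30 against OSC at 2.0 mm (5.85).

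The third comparison followed each cell type from 1.5 to 2.0 mm. In the tapetum 1 of the 6 tested genes rose and 1 fell, where 0.868% of all genes rose and 2.85% fell. Ms33 fell from 1070.5 and 1086 CPM to 0, at least 1048-fold lower at 2.0 mm (edgeR, adjusted p = 0.00361). This fall passed in all 19 alternatives run. Ms30 rose from 0 to 74.5 and 59.4 CPM, at least 11.1-fold higher (edgeR, adjusted p = 0.0364). The rise of Ms30 was lost when any one of the 8 TAP and OSC libraries of either length was left out, with an adjusted p between 0.0520 and 0.203.

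Ms44 had the largest difference in CPM of the members in the tapetum without passing. Its pooled level was 37.9-fold higher at 2.0 mm (95% counting interval 32.8 to 44.1), and both libraries of 2.0 mm lay far above both of 1.5 mm. Its log2 fold change of 5.27 ± 1.39 missed the threshold (SE; edgeR, adjusted p = 0.0518). It passed in 7 of 19 alternatives, among them without replicate 1 or 2 of ME at 1.5 mm (adjusted p = 0.000153 or 0.000110) and with DESeq2 (0.00183), and in the others the adjusted p reached 0.275, without replicate 1 of TAP at 1.5 mm. Ms26 differed by -2.72 ± 1.68 (SE; edgeR, adjusted p = 0.426), Ms6021 by 1.26 ± 1.64 (adjusted p = 0.772) and Ms45 by -0.35 ± 0.55 (adjusted p = 0.822). Over the 6 tested genes the median was 0.46, against 0 over all genes tested.

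In the meiocytes 0 of the 6 tested genes passed in edgeR, 1 had an unadjusted p under 0.05 and DESeq2 called 0, where 0.00590% of all genes, a single gene, were called. Ms45 was 0.59 ± 0.55 higher at 2.0 mm on the log2 scale (SE; edgeR, adjusted p = 0.766), although both libraries of 2.0 mm exceeded both of 1.5 mm. Ms44 differed by -2.73 ± 1.25 (SE; edgeR, adjusted p = 0.401), by 3.11 without replicate 2 of ME at 1.5 mm (adjusted p = 0.0732) and by -3.71 without replicate 1 (adjusted p = 0.0174). It was also called lower without the low-count filter (-2.78, adjusted p = 0.000733). Ms6021 differed by 2.43 ± 1.55 (SE; edgeR, adjusted p = 0.592).

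In other somatic cells 0 of the 6 tested genes passed in edgeR, 2 had an unadjusted p under 0.05 and DESeq2 called 1, where 0.0885% of all genes were called higher at 2.0 mm and 0.201% lower. Ms33 went from 46.6 and 89.0 CPM to 0, at least 43.3-fold lower (edgeR, adjusted p = 0.0739). Ms44 went from 2 counts in each library to 429 and 1044 CPM, a ratio of 225 (95% counting interval 87.7 to 826) and a log2 fold change of 7.75 ± 1.69 (SE; edgeR, adjusted p = 0.0736). Without replicate 1 or 2 of ME at 1.5 mm, the adjusted p was 0.000139 or 0.000108 for Ms44 and 0.000549 or 0.000347 for Ms33. Over 19 alternatives Ms44 passed in 5 and Ms33 in 6, and the adjusted p reached 0.639 and 0.539. Ms45 differed by 0.25 ± 0.57 (SE; edgeR, adjusted p = 0.936).

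Whether the change with length differed between cell types was tested as an interaction. For tapetum against meiocytes 0 of the 6 tested genes passed in edgeR, 3 had an unadjusted p under 0.05 and DESeq2 called 2, where 0.791% of all genes had a positive and 0.325% a negative interaction. Of the genes called there, 70.9% were positive, against 44.9% with RLE size factors and 59.2% with library totals. Ms44 came nearest, with a difference of log2 fold changes of 8.0 ± 1.86 (SE; edgeR, adjusted p = 0.0537). It passed in 3 of 19 alternatives: without replicate 1 of ME at 1.5 mm it was 9.0 (adjusted p = 0.000230), without the low-count filter 8.13 (1.5e-17) and with DESeq2 7.32 (0.00258). Without replicate 2 of ME at 1.5 mm it was 2.19 (adjusted p = 0.263), so its size rested on that library. For tapetum against other somatic cells 0 of the 6 passed, 0 had an unadjusted p under 0.05 and DESeq2 called 0, where 0.118% of all genes had a positive and 0.691% a negative interaction. Ms33 held 0 counts in TAP and OSC at 2.0 mm, and Ms30 held 0 in both at 1.5 mm. Their interaction could not be estimated, so neither could pass and nothing follows for them. Ms44 there gave -2.47 ± 1.95 (SE; edgeR, adjusted p = 0.699), and an adjusted p of 0.0372 when only the TAP and OSC libraries were fitted. No call was thus made for a differing change in the tapetum in the main edgeR fit. For tapetum against meiocytes, 3 members were called without the low-count filter, and 2 with DESeq2, which kept it.

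The fixed anthers, fitted on their own 5 libraries, gave the most calls. The spread between replicates in that fit (biological coefficient of variation) was 29.5%, against 70.6% in the fit of captured libraries. Of the 5 tested genes, 3 rose and 1 fell from 1.5 to 2.0 mm, where 15.2% of all genes rose and 14.5% fell. Of the genes called, 51.1% rose, against 40.9% with library totals. Ms33 fell from 144, 153 and 135 CPM to 1.81 and 0 CPM, with a log2 fold change of -6.77 ± 0.57 (SE; edgeR, adjusted p = 0.000181), and passed in all 12 alternatives run. Ms44 rose from 2.91 to 5.43 CPM in 3 libraries to 385 and 2354 CPM, with a log2 fold change of 8.61 ± 1.17 (SE; edgeR, adjusted p = 0.0147). Its call was lost without replicate 3 of FA at 1.5 mm (adjusted p = 0.0520).

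Ms26 and Ms6021 rose in the fixed anthers from levels of a few counts. Ms26 had 4 counts in the 3 libraries of 1.5 mm and 316 in those of 2.0 mm, a ratio of 73.3 (95% counting interval 28.3 to 271), with a log2 fold change of 5.93 ± 1.25 (SE; edgeR, adjusted p = 0.0210). The call of Ms26 was lost without any one FA library of 1.5 mm (adjusted p between 0.0785 and 0.10), and without replicate 1 of FA at 2.0 mm its log2 fold change was 3.45. Ms6021 rose by 3.62 ± 0.97 on the log2 scale (SE; edgeR, adjusted p = 0.0250), a call lost without replicate 1 or 3 of FA at 1.5 mm or replicate 1 of FA at 2.0 mm (adjusted p between 0.0536 and 0.114). With the replicate number as a block, the adjusted p of Ms6021 was 0.0800, and with all 17 libraries in one fit it was 0.260.

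Ms45 did not pass in the fixed anthers, with a log2 fold change of 0.01 ± 0.19 (SE; edgeR, adjusted p = 0.980), whose sign turned negative with library totals. Ms30 was not tested there. The 5 tested genes had a median of 3.62, against 0.01 over all genes tested. The rise of Ms26 in FA stands beside tapetum values that were lower at 2.0 mm than at 1.5 mm without passing (log2 fold change -2.72).

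The 2 FA libraries of 2.0 mm differed from each other in these genes. Replicate 1 had 67.7 CPM of Ms26, 0 of Ms30 and 385 CPM of Ms44, whereas replicate 2 had 6.92 CPM, 35.9 CPM and 2354 CPM of them. Ms30 and Ms44 thus were higher in replicate 2 and Ms26, Ms33 and Ms6021 in replicate 1. Over all genes with at least 10 CPM in either of those libraries, 5.49% lay 4-fold or more apart, a share above that of the FA libraries at 1.5 mm.

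**Figure D3:**
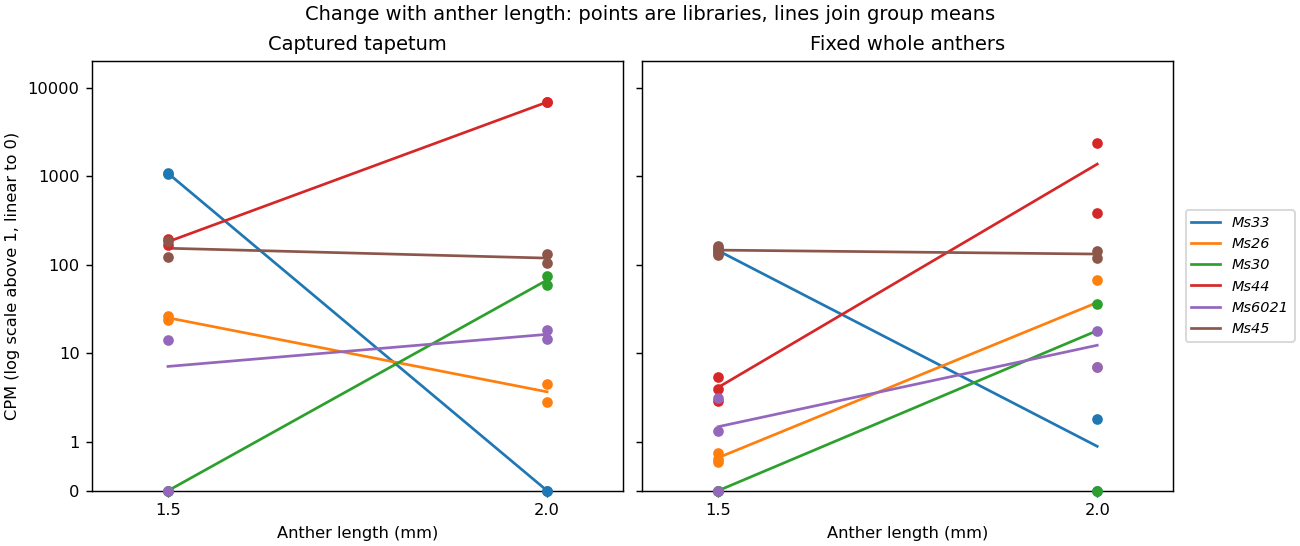
CPM of the 6 genes at both anther lengths in captured tapetum (left) and fixed whole anthers (right), on a log scale above 1 and linear below; points are libraries and lines join the group means. The line of Ms33 falls to 0 in TAP and to near 1 CPM in FA, those of Ms30 and Ms44 slope upward in both, and that of Ms26 slopes down in TAP and up in FA.

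Captured tapetum was also set against the whole fixed anther, in a fit of all 17 libraries. These libraries also differ in preparation, laser capture against whole anthers, which cannot be told apart here from a difference of cell type. At 1.5 mm 3 of the 6 tested genes were called higher in TAP and 0 lower, where 3.80% of all genes were called higher and 6.66% lower. Ms44 differed by 5.69 ± 1.22 (SE; edgeR, adjusted p = 0.00872), Ms26 by 5.29 ± 1.28 (adjusted p = 0.0190) and Ms33 by 3.10 ± 0.88 (adjusted p = 0.0383) on the log2 scale. Leaving out TAP or FA libraries of 1.5 mm one at a time took Ms26 to an adjusted p between 0.0717 and 0.0888, and leaving out those or OSC libraries of that length took Ms33 to between 0.0581 and 0.179. With the replicate block the adjusted p was 0.121 for Ms26 and 0.141 for Ms33, DESeq2 gave 0.184 for Ms33, and for Ms44 it was 0.0524 without replicate 2 of TAP. Ms45 differed by 0.27 ± 0.39 (SE; edgeR, adjusted p = 0.70).

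At 2.0 mm 0 of the 6 tested genes passed in edgeR between TAP and FA, 1 had an unadjusted p under 0.05 and DESeq2 called 0, where 1.37% of all genes were called higher and 13.6% lower in TAP. Ms44 was 2.50 ± 1.18 higher in TAP (SE; edgeR, adjusted p = 0.182) and Ms26 -3.18 ± 1.24 (adjusted p = 0.104), and they passed in 3 and 2 of 24 alternatives. Ms30 differed by 2.09 ± 1.53 (adjusted p = 0.432), and among 24 alternatives it passed only without replicate 2 of FA at 2.0 mm (adjusted p = 0.0106), the FA library that held all its counts. Ms45 differed by 0.01 ± 0.42 (adjusted p = 1), with a negative sign in 21 of 24 alternatives. The 6 tested genes had a median of 0.28, against -0.25 over all genes tested.

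The level in other samples can be read as a percentage of the tapetum level of the same length, pooled over both TAP libraries. For FA such a percentage also carries the difference in preparation. Ms33 at 1.5 mm reached 4.32% (95% counting interval 3.04 to 5.97) and 8.26% (5.32 to 12.3) in the OSC libraries, 13.4%, 14.2% and 12.5% in FA, and 1.43% and 0% (up to 0.123%) in ME. Ms44 at 1.5 mm reached 1.35% and 3.92% in OSC and 2.17%, 2.99% and 1.60% in FA, below the FA percentages of Ms33. In ME it was 1.89% and 192% (163 to 226), the single library above the tapetum.

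At 2.0 mm Ms44 reached 6.23% (95% counting interval 5.75 to 6.73) and 15.2% (14.6 to 15.8) in OSC, and 0.821% and 0.182% in ME. In FA it reached 5.59% and 34.2%, and Ms30 reached 0% (up to 1.26%) and 54.2% (42.2 to 68.9) in the same libraries. Ms30 in OSC was at 1.0% (0.0253 to 5.62) and 1.72% (0.353 to 5.06), so the OSC percentages of the 2 genes were far apart in replicate 2 and in replicate 1 differed with intervals that nearly meet. Ms26 in FA was at 1900% (1220 to 3114) and 194% of its tapetum level. Ms45 lay between 29.6% and 56.6% in the 4 OSC libraries, between 83.3% and 119.8% in FA, and at 225% and 303% in ME of 2.0 mm.

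**Figure D4:**
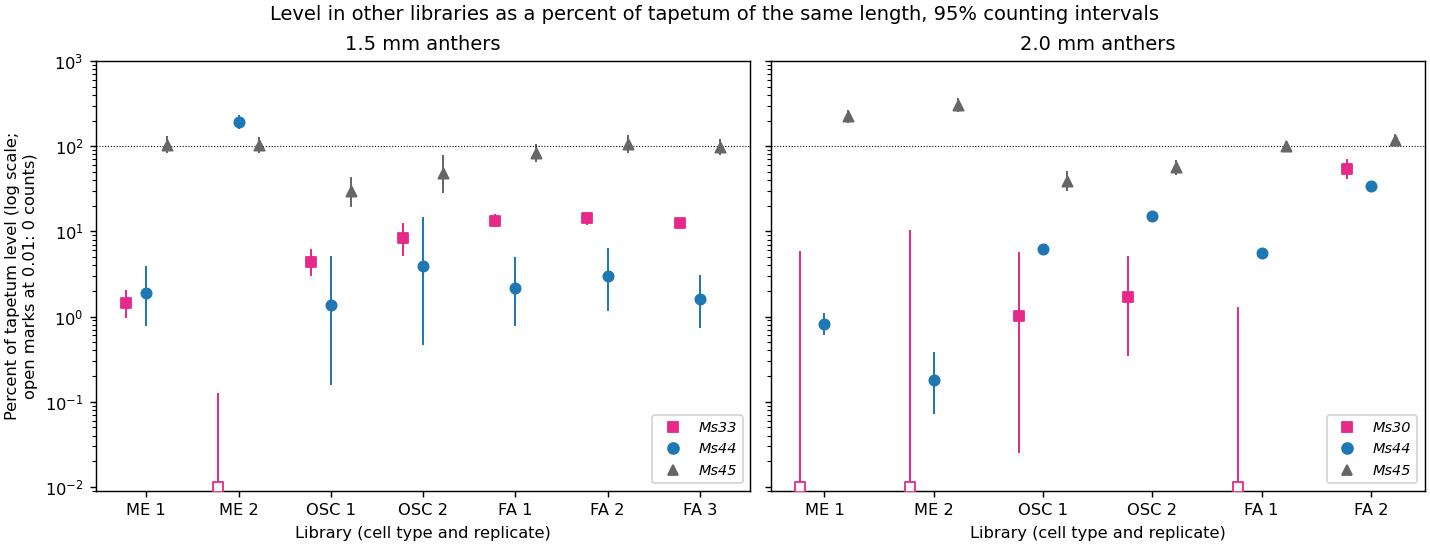
Level of Ms33, Ms44 and Ms45 at 1.5 mm (left) and of Ms30, Ms44 and Ms45 at 2.0 mm (right) in each ME, OSC and FA library as a percentage of the pooled TAP level of the same length (log scale), with 95% counting intervals; open marks on the lower edge are libraries at 0 counts and the dotted line marks 100%. Ms33 lies at 12.5% to 14.2% in FA at 1.5 mm, Ms44 at 5.59% and 34.2% in FA at 2.0 mm, and Ms45 between 29.6% and 56.6% in OSC.

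Likeness between members was measured as Pearson's r of log2 CPM (prior count 2) across the 17 libraries, which share depth and cell types, and is given as a description. For r, CPM were taken over the genes kept by the filter with TMM scaling, not over plain library totals. Ms30 and Ms44 were most alike, with r = 0.758, which put Ms30 at rank 152 of 18309 genes for Ms44 and Ms44 at rank 138 for Ms30. Ms6021 and Ms45 had r = 0.594 and Ms26 and Ms44 r = 0.493. Ms33 was negatively correlated with Ms44 (r = -0.58), Ms30 (-0.55) and Ms6021 (-0.51). Of these genes only Ms30 was called higher in TAP at 2.0 mm than at 1.5 mm. Ms45 had r = -0.04 to Ms44.

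The non-members with the highest median r to the 6 tested genes, among 13975 genes with a mean of at least 20 CPM in a group, were Zm00001d028013 (median r = 0.605) and Zm00001d051736 (median r = 0.60). Zm00001d028013 held 82.4 and 162 CPM in TAP at 2.0 mm and 16.2 and 9.96 CPM in TAP at 1.5 mm. Zm00001d051736 held 25.2 and 39.0 CPM in TAP at 2.0 mm and 8.08 and 23.9 CPM in TAP at 1.5 mm. In both genes the TAP libraries of 2.0 mm lay above those of 1.5 mm. The gap was narrow for Zm00001d051736 (25.2 against 23.9 CPM). Zm00001d028013 also held 22.7 and 56.5 CPM in ME at 1.5 mm, and 54.4 and 17.9 CPM in ME at 2.0 mm. Both genes were picked for likeness to the members over these same libraries, so a pattern shared with most of them was built in. It did not hold for Ms33, to which r was -0.491 for Zm00001d028013 and -0.334 for Zm00001d051736. To Ms26 r was 0.303 and 0.396. To Ms6021, Ms30, Ms44 and Ms45 it lay between 0.594 and 0.794 for Zm00001d028013 and between 0.585 and 0.629 for Zm00001d051736. No test of their change with length is given here.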

How the data were processed

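RNA was measured in 17 CEL-seq2 libraries of 8 groups. The authors deposited raw counts per gene and a gene length in bases, with no normalization. Per the submitters' processing notes, fastp, Trim Galore and HISAT2 were used. Versions, counter, genome build, annotation, strand and collapsing of molecular identifiers are not given in the sources used here, so near-identical or overlapping genes are uncertain. No per-sample column was left unused.

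R 4.3.3 with edgeR 4.0.16 and limma 3.58.1 gave quasi-likelihood tests, using TMM scaling, robust dispersion estimates and a low-count filter by group (filterByExpr, at least 10 counts, 15 in total). Benjamini-Hochberg adjustment covered all genes of each fit. The 12 captured libraries (16940 genes), the 5 FA libraries (16116) and all 17 (18310) were fitted separately, and tests within the first share the meiocyte libraries' spread. Genes with an adjusted p under 0.05 were called. The standard errors (SE) of log2 fold changes are not an output of edgeR. Each is the absolute log2 fold change divided by the square root of the test's F statistic, so it restates the test. Comparisons that share libraries are not independent. CPM are relative to library totals, except for the r values, which use TMM-scaled totals of the genes kept by the filter. Ratios pool the counts of a group, with exact 95% intervals that, like the limit of 3 counts, cover counting error only. A fold against a group at 0 is a lower bound at that limit. DESeq2 1.42.0 was an alternative. The edgeR test was also run on simulated counts with large changes and the same spread for all genes, unlike these data. Its outcome is not reported here. Python 3.11.15, NumPy 2.4.6, pandas 2.3.3, SciPy 1.17.1 and matplotlib 3.10.9 were used for preparation.

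Named genes were all 8 members and the 2 most alike non-members. The members and lists were chosen with earlier results of these data known, although the rule names identifiers and uses no count. A RefSeq gene table (Zm-B73-REFERENCE-NAM-5.0) paired 0 of the 44146 nuclear rows, so the 15 symbols of a pollen wall list are not analysed here.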

Additional observations from a re-analysis of the deposited data

How the results depend on the processing

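With 2 libraries in most groups and a biological coefficient of variation of 70.6% among captured libraries, differences of a few fold are hard to call, and a gene at 0 in a shallow library may still be present below the limit of 3 counts. The fall of Ms33 in TAP and in FA and the excess of Ms30 in TAP over ME at 2.0 mm passed under all alternatives run. The number of genes called among all genes moved by over 1.5 times with the setting in each of the 12 comparisons: from 405 to 4217 for TAP against ME at 1.5 mm (2904 as reported), 2358 to 5762 at 2.0 mm (4697), 26 to 2184 and 645 to 5317 for TAP against OSC at the shorter and longer length (484 and 2539), 143 to 1996 for length in TAP (629), 0 to 438 in ME (1), 1 to 1452 in OSC (49), 838 to 6444 in FA (4782), 0 to 1047 and 0 to 1057 for the interactions (189 and 137), and 386 to 6055 and 1030 to 3736 for TAP against FA at 1.5 and 2.0 mm (1916 and 2740). DESeq2 moved the median gene by 0.57 on the log2 scale for length in ME and by -0.77 for the interaction of TAP and ME. Other scalings within edgeR moved it by up to 0.52 and up to -0.67, both with RLE size factors. The cause of the changes below was not tested.

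Members called changed by over 1.5 times, or from or to 0, as follows. Without the low-count filter, 2 were called for TAP against OSC at 1.5 mm, 2 at 2.0 mm, 1 for length in ME, 2 in OSC, 3 for the interaction of TAP and ME and 2 for TAP against FA at 2.0 mm. DESeq2 called 1 for TAP against OSC at 1.5 mm, 1 for length in OSC and 2 for the interaction of TAP and ME. With only the libraries compared, 0 were called for TAP against ME at 1.5 mm, 3 and 2 for TAP against OSC at 1.5 and 2.0 mm, 2 for length in OSC and 1 for the interaction of TAP and OSC. Smaller changes were also seen. RLE size factors and DESeq2 each called 3 for TAP against ME at 2.0 mm (2 as reported). For length in TAP, 3 were called (2 as reported) with RLE size factors, library totals, DESeq2, no filter or only the libraries compared. DESeq2 called 2 for TAP against FA at 1.5 mm (3 as reported). For length in FA, the replicate block and the fit of all 17 libraries called 3 (4 as reported).

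Same-numbered libraries showed little shared deviation (r between -0.211 and 0.129 over 28 pairs of groups, 1 above 0.1). With so few libraries per group this cannot exclude a shared plant or day. The labels state no pairing, and none was used in the main fit. With the number as a replicate block, 1 member was called for length in TAP (Ms30 had an adjusted p of 0.0602) and 1 for TAP against FA at 1.5 mm, the log2 fold change of Ms44 for TAP against ME at 1.5 mm was 0.115 and the interaction of TAP and ME for Ms6021 was 0.877.

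Signs turned for uncalled values near 0. Ms44 for TAP against ME at 1.5 mm was 0.056 with RLE size factors and with DESeq2, and 0.053 with library totals. Ms45 for TAP against FA at 2.0 mm was -0.099 with RLE, -0.155 with totals, -0.04 without the filter, -0.097 with DESeq2, -0.073 with only the libraries compared and -0.153 with library sizes that include filtered genes, an alternative chosen after seeing the data. Ms45 for length was -0.046 in OSC with totals, and in FA -0.147 with totals, -0.02 without the filter and -0.074 with all 17 libraries in one fit.

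Leaving out 1 library at a time, members called ranged from 1 to 2 and 1 to 3 for TAP against ME at 1.5 and 2.0 mm, 0 to 2 at either length against OSC, 1 to 3 for length in TAP, 0 to 1 in ME, 0 to 2 in OSC, 1 to 4 in FA, 0 to 3 and 0 to 0 for the interactions of TAP with ME and OSC, and 0 to 3 and 0 to 2 for TAP against FA at 1.5 and 2.0 mm. Log2 fold changes that turned sign ranged, for Ms44, from -1.288 to 5.248 for TAP against ME at 1.5 mm and from -4.34 to 3.107 for length in ME. Ms33 ranged from -6.718 to 2.925 for length in ME. Ms6021 ranged from -3.377 to 0.268 for TAP against ME at 2.0 mm, from -0.339 to 3.936 for length in ME, from -2.66 to 5.131 for the interaction with ME and from -0.063 to 1.323 for TAP against FA at 2.0 mm. Ms45 ranged for length from -0.615 to 0.06 in TAP, from -0.077 to 0.494 in OSC and from -0.13 to 0.131 in FA, and for TAP against FA from -0.151 to 0.562 at 1.5 mm and from -0.232 to 0.027 at 2.0 mm.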
